A study of Mus musculus with 6 samples.

Results

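The genes described are 6 receptor tyrosine kinases, Flt1, Kdr, Fgfr1, Fgfr2, Fgfr4 and Pdgfra, in peak lists of thyroid hormone receptor α (TRα) from mouse gastrocnemius, the main calf muscle. The study used chromatin immunoprecipitation followed by sequencing (ChIP-seq) to compare TRα binding across age, with 2 mice aged 6 months, 2 aged 15 months and 2 aged 21 months. The chromatin of every mouse was cross-linked with formaldehyde and precipitated with the same TRα antibody, and each mouse had its own list, called against an input library named for the same mouse. The labels give no genotype, strain, sex or treatment. Whole muscle holds fibres, vessels and connective tissue together, so a peak in it cannot be placed in one cell type, and fewer cells of a type cannot be told apart from less binding per cell.

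Peaks were taken for a gene where annotation text deposited after a peak named a protein of that gene. Such text named 395 genes, at 3812 of 491681 peaks. It is annotation that ran over into lines after a peak row, so being named depends on the annotation as well as on a peak. The 395 genes are thus no neutral sample of genes. The 6 receptors were required to be among them, so their being named is no result. The receptors had 56 peaks in all: 11 and 7 in 6-month mice, 11 and 3 in 15-month mice, and 14 and 10 in 21-month mice, with replicate 1 given before replicate 2 here and throughout. The lists held 79040 and 106152, 99436 and 29405, and 91661 and 85987 peaks at these ages, so numbers are also given per 10000 peaks of the list. Read totals were not used here, and the genome-wide input background recovered from the lists was 3.23 to 5.49 fragments per kb. It was taken as the lowest background at any peak of a list, divided by the shortest peak width, and does not replace read totals.

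Thyroid hormone enters the nucleus and binds TRα, which sits on DNA, mostly with a retinoid X receptor, at repeats of a short half-site and raises or lowers transcription of nearby genes according to whether hormone is bound. The receptors studied here lie at the cell surface, bind growth factors outside the cell and pass the signal on through a tyrosine kinase inside it. Flt1 and Kdr are receptors of vascular endothelial growth factors, Fgfr1, Fgfr2 and Fgfr4 are receptors of fibroblast growth factors, and Pdgfra is the α receptor of platelet-derived growth factor. In muscle Flt1 and Kdr are known from capillary endothelium, Pdgfra from the fibro-adipogenic progenitors between fibres, and fibroblast growth factor receptors from the stem and precursor cells of the fibres.

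The promoters of the VEGF receptor genes are shown because these genes held most of the peaks. They are the 250 bases before the annotated start, 5′ to 3′ on the gene's strand, from RefSeq on GRCm38.p6, chr5:147726012-147726261 (minus strand) for Flt1 and chr5:75978456-75978705 (minus strand) for Kdr. Capitals mark matches, on either strand, to the TRα half-site motifs AGGTCA and GGGTCA, to the TATAAA box and to the cyclic AMP response element TGACGTCA.
Flt1: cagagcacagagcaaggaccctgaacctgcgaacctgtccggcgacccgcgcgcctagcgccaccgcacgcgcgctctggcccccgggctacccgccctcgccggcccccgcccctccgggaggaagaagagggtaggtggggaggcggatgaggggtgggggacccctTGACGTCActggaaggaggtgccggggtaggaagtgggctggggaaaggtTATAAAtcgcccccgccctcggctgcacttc
Kdr: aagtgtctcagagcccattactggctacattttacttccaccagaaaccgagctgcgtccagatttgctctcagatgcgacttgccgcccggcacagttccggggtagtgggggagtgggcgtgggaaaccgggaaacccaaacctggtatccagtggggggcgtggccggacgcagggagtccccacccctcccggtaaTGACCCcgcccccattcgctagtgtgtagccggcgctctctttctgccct
The Flt1 window held TATAAA at 31 to 26 bases before the start and TGACGTCA at 81 to 74 bases before it, and neither half-site motif. The Kdr window held GGGTCA once, at 50 to 45 bases before the start, read as TGACCC on this strand. Over 32851 RefSeq promoter windows of this length, AGGTCA stood in 14.0%, GGGTCA in 11.6%, TATAAA in 12.4% and TGACGTCA in 1.55%. Promoters of 5 of the 6 receptors were matched, and those of Fgfr2, Fgfr4 and Pdgfra held none of these 4 motifs. The peaks are on another build, so they were not placed relative to these windows.

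Flt1 had more TRα peaks than any of the other receptors, 29 of the 56, and was the only one of the 6 with peaks in every mouse. Peaks in every mouse were found for 73 of the 395 named genes (18.5%). Flt1 encodes VEGF receptor 1, which binds VEGF tightly with weak kinase activity and also occurs as a soluble form that holds VEGF back. It had 3 and 4 peaks in 6-month mice, 6 and 1 in 15-month mice, and 8 and 7 in 21-month mice. Per 10000 peaks of the list this was 0.380 and 0.377 in 6-month mice, 0.603 and 0.340 in 15-month mice, and 0.873 and 0.814 in 21-month mice. Both 21-month mice lay above all 4 younger mice, and the mice at 6 and 15 months overlapped. With lists cut to equal length the values were 0.340 and 0 in 6-month mice, 0.680 and 0.340 in 15-month mice, and 2.04 and 0.680 in 21-month mice. Replicate 2 at 21 months then only tied with replicate 1 at 15 months. The equal length was the 29405 peaks of replicate 2 at 15 months, whose list stayed whole. In the other lists any receptor peaks left were those of highest fold. This setting thus cut the lists unequally and is no neutral correction for list length.

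The mean for Flt1 was 0.378 ± 0.00194 in 6-month mice, 0.472 ± 0.186 in 15-month mice and 0.843 ± 0.0415 in 21-month mice (SD, n = 2 each), in peaks per 10000. The mean in 21-month mice was 2.23 times that in 6-month mice and 1.79 times that in 15-month mice. The ratio of 21-month to 6-month mice moved by more than 1.5 times under 2 other settings. With equal list lengths the mean was 1.36 in 21-month mice (8 peaks) and 0.170 in 6-month mice (1 peak), and with a pileup of at least 5 it was 1.35 in 21-month mice (9 peaks) and 0.226 in 6-month mice (3 peaks). Each value rests on few peaks. The pileup cutoff kept 66311 of 79040 peaks in replicate 1 at 6 months but 26713 of 106152 in replicate 2. It thus cut the lists unequally. Exact binomial 95% intervals, which cover counting error only, were 0.377 to 1.72 and 0.327 to 1.68 for the 21-month mice, and 0.0783 to 1.11 and 0.103 to 0.965 for the 6-month mice. These intervals overlap.

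Pearson's r of the Flt1 values with age was 0.84 (two-sided exact permutation p = 0.0667, adjusted 1 over 395 genes), and its Spearman's rho 0.72 (exact permutation p = 0.178, adjusted 1). Leaving out the 6-month mice, which lie farthest from the median age, gave an r of 0.89. Of the 395 named genes 1 had a higher r than Flt1. With a pileup of at least 5 fragments in every peak, r was 0.86 and its exact permutation p was 0.0444 (adjusted 0.970), one of 3 genes of 326 with p under 0.05 there. Flt1 therefore did not pass the test over all genes under either setting. The pileup cutoff also kept unequal parts of the lists, as given above. Among all 395 genes, 0 passed with an adjusted p under 0.05, which was 0% of genes. At an unadjusted p under 0.05, 1 gene was higher with age (0.253%) and 8 were lower (2.03%), and none of the 6 receptors was among them. The 90 assignments of ages to mice allow no p under 0.0111, and a gene alone at that p would have an adjusted p of 1.

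With values of both 21-month mice above both 6-month mice, Flt1 was 1 of 37 genes (9.37% of 395). It was also 1 of 50 genes (12.7%) with both 21-month mice above both 15-month mice, and Fgfr1 was another. Peaks within 200 kb on either side of the Flt1 peaks, outside them, gave 1.01 and 0.754 per 10000 in 6-month mice, 1.41 and 1.02 in 15-month mice, and 1.85 and 1.16 in 21-month mice. The flanks, a comparison chosen after the values were seen, thus also had both 21-month mice above both 6-month mice. Chromosome 5 as a whole held 589 to 625 peaks per 10000 in the 6 mice. The part of the surroundings in the Flt1 values was not tested.

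**Figure D1:**
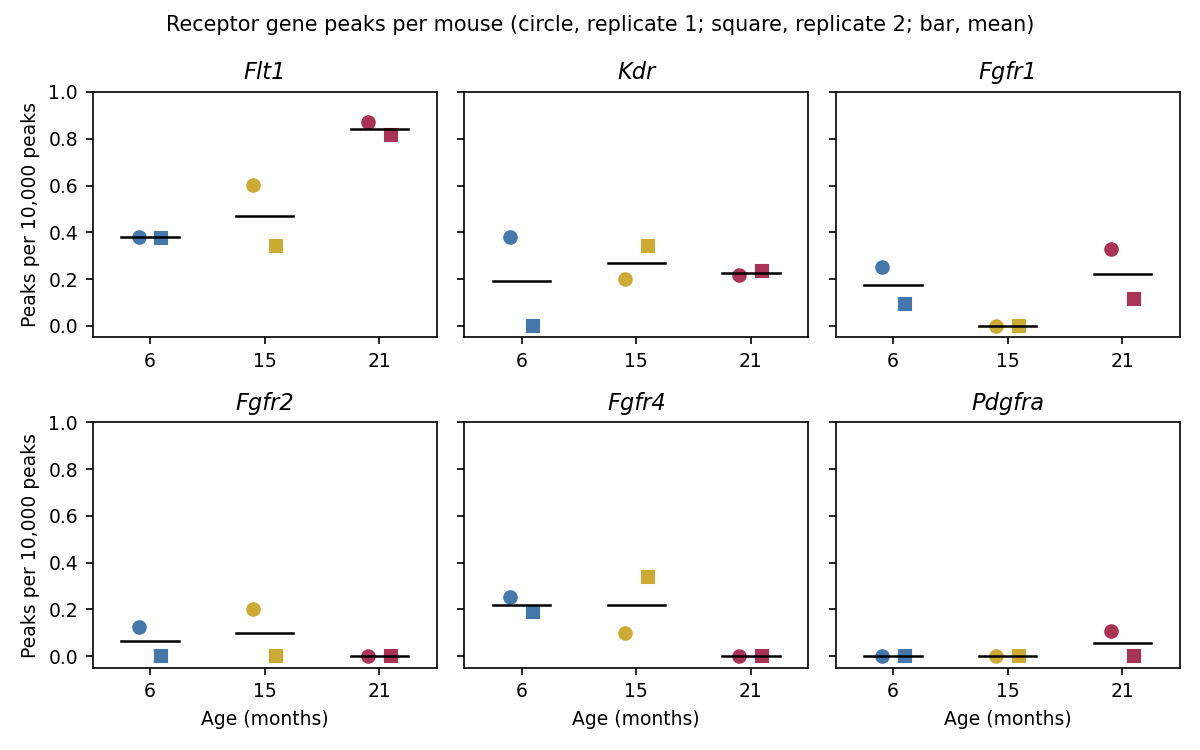
TRα peaks of each receptor gene per 10,000 peaks of the mouse's list (y axis) against age in months (x axis), with circles for replicate 1, squares for replicate 2 and bars for the mean of the 2 mice. Flt1 lies between 0.340 and 0.603 in the mice of 6 and 15 months and at 0.873 and 0.814 in those of 21 months, Fgfr1 is at 0 in the 15-month mice, and Fgfr4 is at 0 in the 21-month mice.

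The Flt1 peaks were scattered along one stretch of chromosome 5, from 147521992 to 147671906 on GRCm39, which is 150 kb. All peaks of the 6 lists inside it carried the name of Flt1. The median gap from one peak to the next over all mice was 3.14 kb, and the longest was 24.7 kb. Over the stretch between the nearest peaks not named for Flt1 on either side, 172 kb, there were 16.9 peaks per 100 kb from the 6 lists together. Within the outermost Flt1 peaks there were 19.3. Chromosome 5 as a whole had 20.0 per 100 kb, so the density of peaks at Flt1 was close to that of its chromosome. Exon, intron and distance to a start site were not used here.

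No Flt1 position was shared by mice of one age, a count that was not made over all regions. Most possible pairs of mice are of different ages, and only 6.4% of all regions had peaks in at least 2 mice of any age. The gaps below were not compared with those at other genes. The closest Flt1 peaks of different mice of one age were 5.66 kb apart in 6-month mice, 4.88 kb in 15-month mice and 2.96 kb in 21-month mice. Overlaps between ages occurred at 3 positions, each between 1 mouse and 1 other. At 147575029 to 147576115 replicate 2 at 21 months (fold 3.46) and replicate 1 at 6 months (fold 2.67) shared 55 bp. At 147596963 to 147597449 replicate 1 at 21 months (fold 3.13) and replicate 2 at 6 months (fold 2.82) shared 54 bp. At 147630202 to 147630579 replicate 1 at 21 months (fold 3.14) and replicate 2 at 15 months (fold 2.85) shared 44 bp. These overlaps covered 15.9% to 21.5% of the shorter peak.

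Fold is the authors' ratio of fragments at the summit to the local input background, and pileup is the authors' number of fragments stacked there. Both belong to single peaks and, apart from the pileup cutoff of 5, were compared only within a list. Flt1 peaks had a median pileup of 5 fragments (3 to 7) and a median fold of 2.92 (2.20 to 4.09). Their folds ranked at a median percentile of 50.7 within the lists, so Flt1 peaks were of ordinary strength for these lists. The strongest by rank was in replicate 2 at 21 months, at 147644915 to 147645217, with 6 fragments, a fold of 4.09 and a q of 0.0959, at percentile 97.2. None of the 29 reached a q of at most 0.05.

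**Figure D2:**
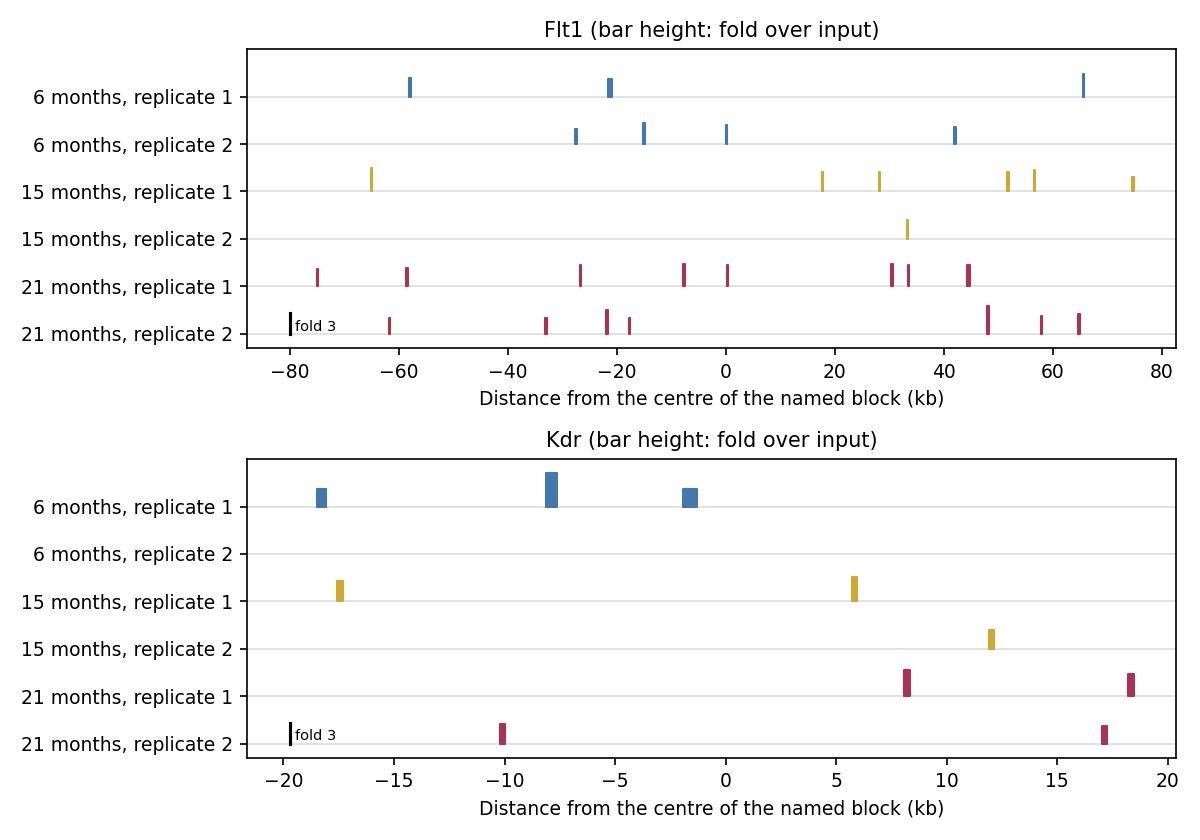
Peaks of Flt1 (upper panel) and Kdr (lower panel) in each mouse, 1 row per mouse, against the distance in kb from the centre of the stretch holding the gene's named peaks; bar width is the peak and bar height its fold, with a scale bar of fold 3. Bars of different mice stand at different positions nearly throughout, and the tallest, fold 5.01, is a Kdr peak of replicate 1 at 6 months.

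Kdr, the VEGF receptor that carries most of the growth and survival signal in endothelium, had the single receptor peak that passed the authors' q at 0.05. Its 10 peaks lay in 5 mice, with 3 and 0 in 6-month mice, 2 and 1 in 15-month mice, and 2 and 2 in 21-month mice. Per 10000 peaks, Kdr stood at 0.380 and 0 in 6-month mice, 0.201 and 0.340 in 15-month mice, and 0.218 and 0.233 in 21-month mice. The 6-month mice were the highest and the lowest of all, so the ages overlapped. With age, Kdr gave a Pearson's r of 0.15 (exact permutation p = 0.8, adjusted 1) and a rho of 0 (exact permutation p = 1, adjusted 1). Without the 6-month mice its r was -0.42.

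The strong Kdr peak lay at chromosome 5, 76116775 to 76117273 (GRCm39), in replicate 1 at 6 months. It had 10 fragments, a fold of 5.01 and a q of 0.00337, and stood at percentile 99.8 of its list. The local background there equalled the genome-wide level of the list. No other mouse had a peak at this position, and the nearest was 1.87 kb away in replicate 2 at 21 months, with 4 fragments and a fold of 2.92. It was 1 of 56 receptor peaks with a q of at most 0.05, against 2.21% of all peaks and 1.99% of peaks with a gene name.

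The other Kdr peaks had 4 to 6 fragments. A peak at 76132943 to 76133240 in replicate 1 at 21 months had 6 fragments and a fold of 3.86 (percentile 95.7), and one at 76130602 to 76130824 in replicate 1 at 15 months had 5 fragments and a fold of 3.54. With the strong peak these were 3 of the 5 receptor peaks at or above percentile 90, and the other 2 were of Flt1. About 10% of the peaks of any list lie there by definition, and the 5 of 56 receptor peaks were near that share. Kdr peaks had the highest median percentile of fold of the receptors, 61.6. No 2 of the 10 overlapped, where 6.4% of all regions of the series had peaks in at least 2 mice. The closest of one age were 0.955 kb apart, in 21-month mice, and 6.00 kb apart in 15-month mice.

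The Kdr peaks spanned 37.0 kb, from 76106412 to 76143372, and all peaks inside were named Kdr. There were 27.1 peaks per 100 kb within the outermost Kdr peaks and 16.7 over the 59.8 kb between the nearest peaks not named for Kdr. These values lie on either side of the 20.0 of chromosome 5. Kdr lies next to Kit, another receptor tyrosine kinase, which lies next to Pdgfra in the RefSeq order of genes. Kit was also named, with 3 and 1 peaks in 6-month mice, 4 and 3 in 15-month mice, and 1 and 6 in 21-month mice.

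Pdgfra, at the other end of this group of genes, was named at a single peak, in replicate 1 at 21 months. The peak lay at chromosome 5, 75313132 to 75313359, with 3 fragments, a fold of 2.21 and a q of 1, at percentile 10.5 of its list. Per 10000 peaks this was 0.109, and the other 5 mice were at 0. A count of 0 peaks allows up to 0.283 to 1.02 per 10000 in these lists, taking 3 peaks as the limit. The value of 0.109 is below each of these limits, so the lists cannot show a difference between mice at Pdgfra. Its Pearson's r for age, 0.51 (exact permutation p = 0.667, adjusted 1), rests on this 1 peak.

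Among the fibroblast growth factor receptors, peaks named for Fgfr1 were found in all 6-month and 21-month mice and in neither 15-month mouse. Fgfr1 is the family member known from proliferating muscle precursor cells. It had 2 and 1 peaks in 6-month mice, 0 and 0 in 15-month mice, and 3 and 1 in 21-month mice, which was 0.253 and 0.0942, 0 and 0, and 0.327 and 0.116 per 10000. The values of 15-month mice do not overlap those of the other ages, but a count of 0 in the lists of 15-month mice allows up to 0.302 and 1.02 per 10000. Of the 4 values at other ages only the 0.327 of replicate 1 at 21 months exceeds the lower of these limits and none exceeds the higher. The exact binomial 95% intervals of the 15-month mice reached 0.371 and 1.25 and overlapped those of all 4 other mice.

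Peaks in both 21-month mice and neither 15-month mouse were found for 4.56% of the 395 genes, and Fgfr1 was the 1 such receptor. Peaks in both 6-month mice and neither 15-month mouse were found for 3.29%, and Fgfr1 was again the 1 receptor. Both comparisons use the same 15-month mice, and with a pileup of at least 5 or lists cut to equal length no receptor met either. No receptor had peaks in both 21-month mice and neither 6-month mouse, which 2.28% of genes had, or in both 15-month mice and neither 6-month mouse, which 2.03% had. Values of both 15-month mice were below those of both 6-month mice for 10.6% of genes, Fgfr1 among them, and above for 12.4%, with no receptor. Over the 3 ages Fgfr1 had a Pearson's r of 0.07 (exact permutation p = 0.9, adjusted 1) and a rho of 0.24 (exact permutation p = 0.667, adjusted 1). Without the 6-month mice r was 0.83, a relation that then rests on the 15-month mice at 0.

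The 7 Fgfr1 peaks lay between 25993275 and 26022812 on chromosome 8, with 3 to 6 fragments and a median fold of 2.76. All had a local background within 5% of the genome-wide level, a share not counted over all peaks, and none reached a q of at most 0.05. The strongest by rank, in replicate 2 at 21 months at 25995882 to 25996419, had 5 fragments and a fold of 3.51 (percentile 88.5). No Fgfr1 position was shared by any mice, where 6.4% of all regions of the series had peaks in at least 2 mice. The closest peaks of one age were 2.40 kb apart in 21-month mice and 17.6 kb apart in 6-month mice.

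Fgfr4, known from regenerating muscle fibres and from the control of bile acid synthesis in liver, had peaks in all 4 mice of 6 and 15 months and none in 21-month mice. The numbers were 2 and 2 in 6-month mice, 1 and 1 in 15-month mice, and 0 and 0 in 21-month mice. Per 10000 peaks they were 0.253 and 0.188, 0.101 and 0.340, and 0 and 0. Both 21-month mice lay below the other 4. The 0 peaks in 21-month mice allow up to 0.327 and 0.349 per 10000, and of the younger mice only replicate 2 at 15 months exceeded the lower limit, with its single peak. The relation with age had a Pearson's r of -0.66 (exact permutation p = 0.189, adjusted 1) and a rho of -0.73 (exact permutation p = 0.133, adjusted 1). Without the 6-month mice r was -0.79.

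Genes with peaks in both 6-month mice and neither 21-month mouse made up 3.04% of the 395, and those with peaks in both 15-month mice and neither 21-month mouse 2.03%. Fgfr4 was the 1 receptor in each, and both comparisons use the same 21-month mice. Here too no receptor was left with a pileup of at least 5 or lists cut to equal length. Both 21-month mice lay below both 6-month mice for 10.6% of genes and below both 15-month mice for 10.1%. Peaks within 200 kb on either side of the Fgfr4 peaks gave 1.39 and 1.32 per 10000 in 6-month mice, 1.11 and 2.04 in 15-month mice, and 0.873 and 0.233 in 21-month mice. These flanks, again chosen after the values were seen, had both 21-month mice below the other 4 as well, and their part in the Fgfr4 values was not tested. The flanks of Fgfr1 did not follow that gene, with 1.01 and 1.60 per 10000 in 6-month mice, 1.21 and 1.36 in 15-month mice, and 1.53 and 1.05 in 21-month mice.

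Fgfr4 peaks were the weakest of the receptors with several peaks. The 6 peaks lay between 55292136 and 55313787 on chromosome 13, with 3 to 5 fragments. Their median fold was 2.29, and the median percentile was 13.4. The highest was in replicate 2 at 15 months, at 55311385 to 55311677, with 5 fragments and a fold of 3.23 (percentile 59.2). None overlapped a peak of another mouse, where 6.4% of all regions of the series had peaks in at least 2 mice. No Fgfr4 peak had a q of at most 0.05.

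The Fgfr2 peaks stood close together. Fgfr2 is the family member known from epithelia and bone. All 3 peaks lay within 1.19 kb of chromosome 7, from 132724393 to 132725578. This position is more than 2 Mb outside the span of Fgfr2 in the RefSeq table of the earlier build. Positions differ between builds, and whether the authors' annotation holds a longer Fgfr2 transcript was not checked. The link of these peaks to Fgfr2 therefore rests on the deposited text alone. Replicate 1 at 6 months had 1 and replicate 1 at 15 months had 2, and the other 4 mice had 0. A peak of replicate 1 at 15 months (fold 2.91) and the peak of replicate 1 at 6 months (fold 2.67) overlapped by 21 bp, 8.68% of the shorter. The other peak of replicate 1 at 15 months had 5 fragments and a fold of 3.24, and all 3 had 4 or 5 fragments with a q far above 0.05. Per 10000 peaks the values were 0.127 and 0 in 6-month mice, 0.201 and 0 in 15-month mice, and 0 and 0 in 21-month mice, with a Pearson's r of -0.27 (exact permutation p = 0.667, adjusted 1) and a rho of -0.35 (exact permutation p = 0.667, adjusted 1) for age.

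Over all receptors together the ages overlapped. The sum was 1.39 and 0.659 per 10000 peaks in 6-month mice, 1.11 and 1.02 in 15-month mice, and 1.53 and 1.16 in 21-month mice. The means were 1.03 ± 0.518, 1.06 ± 0.0608 and 1.35 ± 0.258 (SD, n = 2 each). All named genes together gave 76.8 ± 4.33, 83.2 ± 1.16 and 74.2 ± 7.09 per 10000 (SD, n = 2 each). The spread between the 6-month mice was larger than the difference between the means of any ages.

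**Figure D3:**
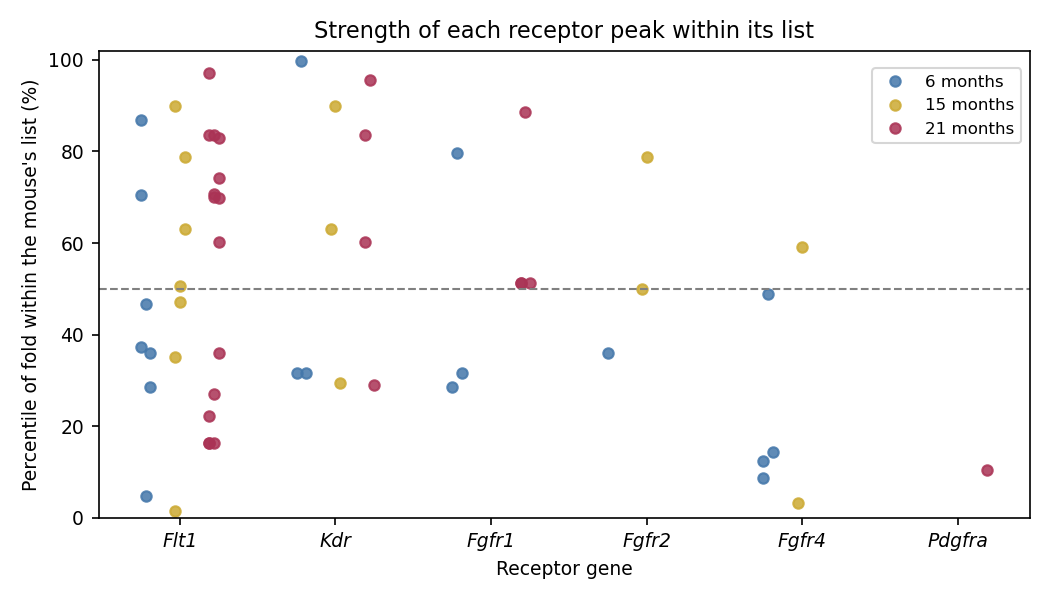
Percentile of fold within the mouse's own list (y axis, 50 at the dashed line) for each of the 56 receptor peaks, by gene (x axis) and age (colour). Flt1 peaks are spread from 1.57 to 97.2, Kdr peaks lie between 29.1 and 99.8, and Fgfr4 peaks between 3.30 and 59.2.

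Taken as a group, receptor peaks resembled the lists they came from. The median fold per mouse was 2.67 and 2.45 in 6-month mice, 2.95 and 2.85 in 15-month mice, and 3.14 and 2.78 in 21-month mice. The medians of the whole lists were 2.73 and 2.82, 2.91 and 3.14, and 2.76 and 2.92. Receptor peaks stood above the list median in replicate 1 at 15 months and replicate 1 at 21 months and below it in the other 4 mice. Of the 56 peaks, 51 had a pileup of 5 fragments or fewer, and 37 had a local background within 5% of the genome-wide level of their list. Neither share was counted over all peaks, whose median pileup was 4 or 5 in each list.

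The 56 peaks formed 52 regions when peaks overlapping by at least 1 bp were joined. Of these, 4 (7.69%) had peaks in 2 mice and 0 in 3 or more. Over all 458111 regions of the series 6.4% were found in at least 2 mice, and over the 3588 regions with a gene name 5.52%, so sharing at the receptors was near the background. The 4 regions were the 3 of Flt1 and the 1 of Fgfr2 given above. Each joined mice of different ages, as do most of the possible pairs of mice. Sharing within one age was not counted over all regions.

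**Figure D4:**
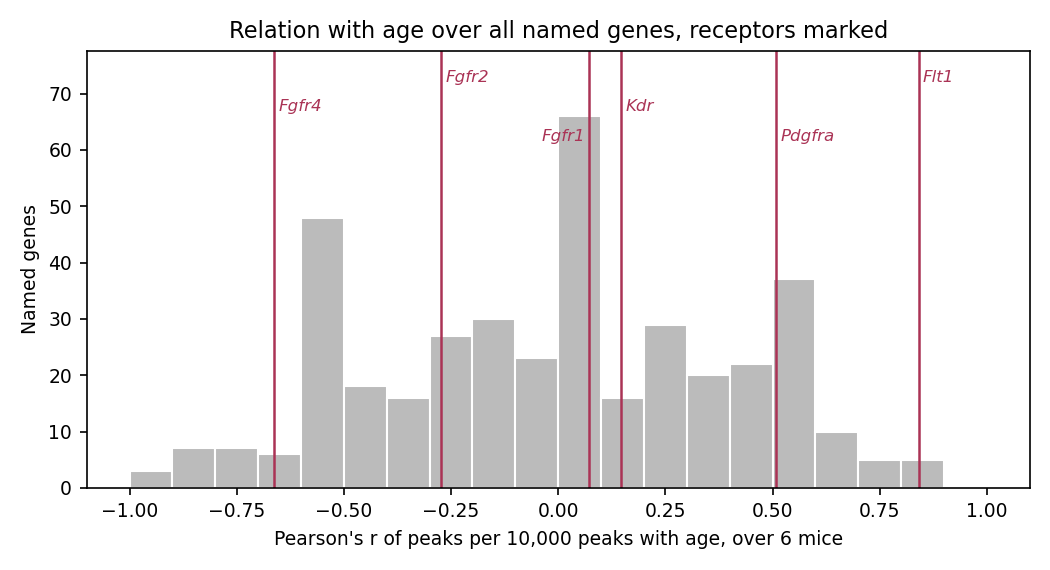
Number of named genes (y axis, 395 in all) by Pearson's r of their peaks per 10,000 peaks with age over 6 mice (x axis), with a line for each receptor. The receptors run from -0.66 for Fgfr4 to 0.84 for Flt1, and Kdr and Fgfr1 stand near 0.

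The genes most like Flt1 over the 6 mice, among the 130 genes with at least 10 peaks, were Ins1 (r = 0.81) and Traf6 (r = 0.79). Ins1, an insulin gene, had 9 and 7 peaks in 6-month mice, 8 and 1 in 15-month mice, and 13 and 13 in 21-month mice. Traf6, a ubiquitin ligase of cytokine signalling, had 1 and 4, 5 and 1, and 5 and 8. The genes most like Kdr were Wnt7a (r = 0.92) and Fzd1 (r = 0.82), a Wnt ligand and a Wnt receptor, with 21 and 62 peaks over the 6 mice. These correlations of peaks per 10000 are over 6 mice whose list lengths they share, and are given as descriptions.

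Other genes of these growth factor pathways were named in part. Only 3812 of 491681 peaks carried a gene name, so a gene that was not named can still have peaks. The shares named below depend on where annotation text ran over, and are not a measure of TRα binding. Of 31 ligand genes 4 were named, with 10 peaks each for Fgf10 and Fgf8, 7 for Vegfa and 3 for Pdgfb. Vegfa, the main ligand of Flt1 and Kdr, had 1 and 2 peaks in 6-month mice, 1 and 0 in 15-month mice, and 0 and 3 in 21-month mice, and its ages overlapped. Of 16 other receptors and coreceptors 6 were named, among them Itgb3 with 12 peaks, Flt4, the VEGF receptor of lymphatic vessels, with 8, and Fgfr3 and Nrp1 with 6 each.

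Fgfr3 had 2 and 1 peaks in 6-month mice, 2 and 0 in 15-month mice, and 0 and 1 in 21-month mice. Of 40 other receptor tyrosine kinases 20 were named, with the most peaks for Epha5 and Igf1r (33 each), Epha7 (29) and Ephb2 (23). Of 50 downstream signalling genes 23 were named, led by Pik3cb (23), Src (13), Fyn (12) and Stat3 (7). The 6 receptors had a median of r with age of 0.11, against -0.26 for the ligands, -0.34 for other receptors and coreceptors, 0.04 for other receptor tyrosine kinases, 0.06 for downstream genes and 0.03 for all named genes. Among the receptors and in each of the 4 pathway lists 0 genes passed the age test, adjusted or unadjusted, where over all named genes 0 passed adjusted, and 1 (0.253%, higher with age) and 8 (2.03%, lower) passed unadjusted.

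The labelled tissue could not be checked against markers, since a TRα peak at a gene does not mark a cell type. None of 8 muscle fibre, 7 endothelial and 4 satellite cell marker genes was named by the annotation text. Of 5 markers of fibro-adipogenic progenitors only Pdgfra was named.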

How the data were processed

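TRα ChIP-seq peak lists of 6 mice were used, 1 table and 1 browser-format list per mouse, with groups by age from the sample titles. The submitters' processing notes name MACS2 2.1.1.20160309, SAMtools 1.3.1, Trimmomatic 0.36 and HOMER 3, and the builds GRCm39 and mm10. The aligner is not given in the sources used here. Scaffold names in the lists belong to GRCm39, so peak positions are GRCm39, counted from 1. The pileup deposited by the authors is a signal, fragments at the summit. The authors' deposited fold was read as the ratio of pileup to local input background, each with 1 added. The background was recovered from it as (pileup + 1) / fold − 1. The authors' deposited p-values and q-values are on a −log10 scale, and the lists hold peaks with p under 0.01 at any q. The browser-format lists held the same positions and pileups for every peak.

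Protein accessions in annotation text after a peak row were matched to symbols with a RefSeq table of GRCm38.p6, used only for names, gene order and the span of Fgfr2. The text followed 3987 peaks. Peaks per 10000 peaks of a list were related to age by Pearson's r, tested by two-sided exact permutation over all 90 ways to assign ages, and adjusted by Benjamini-Hochberg over 395 genes. Between 2 ages the smallest p of 3 splits is 0.333, so genes were counted, not tested. The test and the joining of peaks were checked on simulated data. Alternatives were a q of at most 0.05, equal list lengths (29405 peaks), a pileup of at least 5, other denominators, a stricter overlap, a replicate block and leaving out each mouse. Receptors are all named. Genes most like a receptor were the 2 with the highest r, for receptors with at least 10 peaks, and up to 4 genes per pathway list were named, those with the most peaks. The receptors and gene lists were chosen with earlier results of these data known. The replicates are separate mice per the series' design, with 2 per age. Analyses used Python 3.11.15, NumPy 2.4.6 and SciPy 1.17.1.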

Additional observations from a re-analysis of the deposited data

How the results depend on the processing

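With 2 mice per age and 3 to 10 fragments per peak, an absent peak does not show absent binding. The number of receptors past the age test was 0 under every setting, while at an unadjusted p under 0.05 there was 1, Flt1, with a pileup of at least 5 and 1, Fgfr4, without replicate 2 at 15 months (r = -0.98, exact permutation p = 0.0333, adjusted 0.873), where 15 of 393 genes (3.82%) were under 0.05. The r of Flt1 was 0.72 with equal list lengths, 0.80 per 1000 named peaks and 0.78 to 0.99 without single mice. Those of Kdr and Fgfr1 without single mice were -0.78 to 0.69 and -0.48 to 0.45. The sign turned for Kdr at q of at most 0.05 (-0.58), and with equal list lengths for Fgfr1 (-0.0574), Fgfr2 (0.0725) and Fgfr4 (0.0725). With the replicate block the r of Flt1 was 0.87 (exact permutation p = 0.111) and 0 receptors passed. Deviations of mice with the same number correlated at 0.00162, 0.0340 and -0.125 over genes, so the numbers were not taken to pair mice, and the block moved the genes at an unadjusted p under 0.05 to 3.

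Receptor peaks at 6, 15 and 21 months were 5.43, 0 and 0 per 10000 at q of at most 0.05, 0.510, 1.19 and 1.87 with equal list lengths, 0.754, 1.11 and 1.81 for pileups of 5 or more, 13.6, 12.8 and 18.4 per 1000 named peaks, and 0.335, 0.381 and 0.458 per Mb covered. Without single mice they ranged over 0.659 to 1.39, 1.02 to 1.11 and 1.16 to 1.53 per 10000. The pileup cutoff and the equal list length kept unequal parts of the lists, as given for Flt1. The median fold was 5.01 at 6 months at q of at most 0.05, 3.38, 3.12 and 3.39 with equal list lengths, and 3.21 in 15-month and 3.37 in 21-month mice for pileups of 5 or more. At q of at most 0.05 there was no fold at 15 and 21 months, where no receptor peak was left. Without single mice it ranged over 2.45 to 2.67, 2.85 to 2.95 and 2.78 to 3.14.

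The 4 counts of 1 receptor with peaks at one age and not another (Fgfr1 and Fgfr4) each became 0 at q of at most 0.05, with equal list lengths and with a pileup of at least 5. Without single mice they ranged from 1 to 2 or stayed at 1, and the counts of 0 ranged from 0 to 1. Leaving out a mouse only loosens these conditions, so no count could fall, and this setting cannot show that the counts hold. Receptor regions in several mice numbered 0 at q of at most 0.05, 1 with equal list lengths, 2 with a pileup of at least 5, 0 with an overlap of at least 50% of the shorter peak, and 2 to 3 without single mice. The peak with a q of at most 0.05 was lost without replicate 1 at 6 months, so its count ranged from 0 to 1.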
